A study of Mus musculus with 6 samples.

Results

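Aminoacyl-tRNA synthetase genes were examined in untreated mouse embryonic stem cells by ATAC-seq, an assay in which the Tn5 transposase cuts accessible DNA. The genes were chosen by symbol. Protein-coding RefSeq genes were kept whose symbol is an amino acid letter (or Ep) followed by ars, alone or with 1, 2, a, b, l or l2. This gave 37 of 21887 protein-coding genes: 18 encode cytosolic enzymes, 17 encode mitochondrial enzymes, and Gars and Kars encode enzymes that serve both compartments. The symbol pattern misses Eprs, the fused glutamyl- and prolyl-tRNA synthetase, whose values are given beside the members' but not counted with them. The threonyl enzyme also known as Tars3 is among the members as Tarsl2.

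The study labels 6 samples in 6 groups of 1. All share the mouse embryonic stem cell line E14 with an NSD1-dTAG knock-in, which tags the histone methyltransferase NSD1 so that the compound dTAG-13 can trigger its degradation. Stem cells in 2i/LIF medium received 500 nM dTAG-13 for 0, 1, 6 or 24 h. Embryoid bodies, grown for 6 days, were kept without it or with 500 nM. Only the peak list of the untreated stem cells, which carry the tag but received no dTAG-13, was used; the other 5 samples were not analysed here. Times follow the titles: under treatment, the samples titled 1 h and 24 h are each labelled 6 h. The cells were grown on gelatin, and the labels do not say whether the knock-in line is a single clone. With 1 library there is no replicate error and no test, so every comparison below is a description of this library, and intervals cover counting error only.

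Aminoacyl-tRNA synthetases join each amino acid to its cognate tRNA, and so set the genetic code at the step before the ribosome. Animal cells keep separate enzymes for the cytosol and for the mitochondrion, all encoded in the nucleus; the mitochondrial enzymes charge tRNAs transcribed from mitochondrial DNA. Several cytosolic enzymes are held with scaffold proteins in the multisynthetase complex. Mitochondria of animals make glutaminyl-tRNA by a different route, in which a glutamyl-tRNA is amidated by the enzyme of Qrsl1, Gatb and Gatc. When amino acids are short, the transcription factor ATF4 binds C/EBP-ATF response elements (CARE) and raises many genes of amino acid supply, several cytosolic synthetases among them.

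The library held 77629 peaks with a median summit pileup of 23. Pileup is the number of reads or fragments over the peak's highest point, recovered from the deposited values, and fold enrichment is the authors' ratio of pileup to local background. Of 8 embryonic stem cell markers, 7 had a peak within 1 kb of an annotated gene end, with pileups from 58 at Nanog to 163 at Tbx3. Esrrb had none there but had 22 peaks inside the gene, the tallest at 179. Of 6 fibroblast markers, 4 had a gene-end peak, with pileups from 7 at Col1a2 to 38 at Col1a1, and Col3a1 and Acta2 had none. Among all protein-coding genes 66.5% had such a peak. The marker lists were apart in pileup but overlapped in fold, with medians of 7.34 for stem cell and 6.53 for fibroblast markers. All genes with a gene-end peak had a median fold of 11.1. Above it stood 0 stem cell markers and 1 fibroblast marker, Col1a1.

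Nearly all synthetase genes had accessible ends. A peak lay within 1 kb of a gene end at 35 of 37 synthetase genes (94.6%, Wilson 95% interval 82.3 to 98.5%), against 66.5% of all protein-coding genes. The count was 18 of 18 for cytosolic enzymes, 15 of 17 for mitochondrial enzymes (88.2%, 65.7 to 96.7%) and 2 of 2 for Gars and Kars. All 35 had a pileup of 20 or more, so that 94.6% of the members reached it, against 60.2% of all genes. The 2 genes without a gene-end peak were Aars2, the mitochondrial alanyl enzyme, and Tars2, the mitochondrial threonyl enzyme.

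Both had a peak at a transcription start that lies further inside the annotated gene. RefSeq promoter windows listed a start for 27 of the 37 members, and all 27 had a peak within 1 kb of it, against 66.5% of 17492 genes with a listed start. The listed start of Aars2 lies 3.32 kb inside the gene, with a pileup of 75 (59.0 to 94.0, exact Poisson 95% interval) and a fold of 14.8. That of Tars2 lies 1.39 kb inside, with a pileup of 79 (62.5 to 98.5) and a fold of 14.0. Aars, the cytosolic alanyl enzyme, likewise has its listed start 6.06 kb inside its annotated span, and its start peak reached 118 (97.7 to 141). Unlike Aars2 and Tars2, Aars also had a peak at its annotated first end, with a pileup of 31 (21.1 to 44.0) and a fold of 7.79. Eprs had no gene-end peak either, and a pileup of 126 at its listed start. The highest-fold peak within 1 kb of the listed start, or of a gene end where no start was listed, is called the promoter peak from here on. This definition was chosen after seeing the data. All 37 members had such a peak, against 66.7% of all genes. For the 10 members without a listed start, Lars and Rars among them, the strand is not given, so this peak may stand at the far end.

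Promoter peaks of the synthetases were tall and of a narrow range of heights. Pileups ran from 53 at Gars to 161 at Lars, with a median of 94 over the 37 members, beside a median of 67 and a middle 50% from 39 to 101 over all genes with a promoter peak. Of the 37, 32 lay above the median of all genes, 14 above the upper quartile and 0 below the lower quartile. Fold enrichment had a median of 14.4 over the members and 11.2 over all genes, and 30 of 37 members exceeded the latter. Peak widths had a median of 865 bp over the members, with a range from 541 to 1677 bp, and of 906 bp over all genes.

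**Figure D1:**
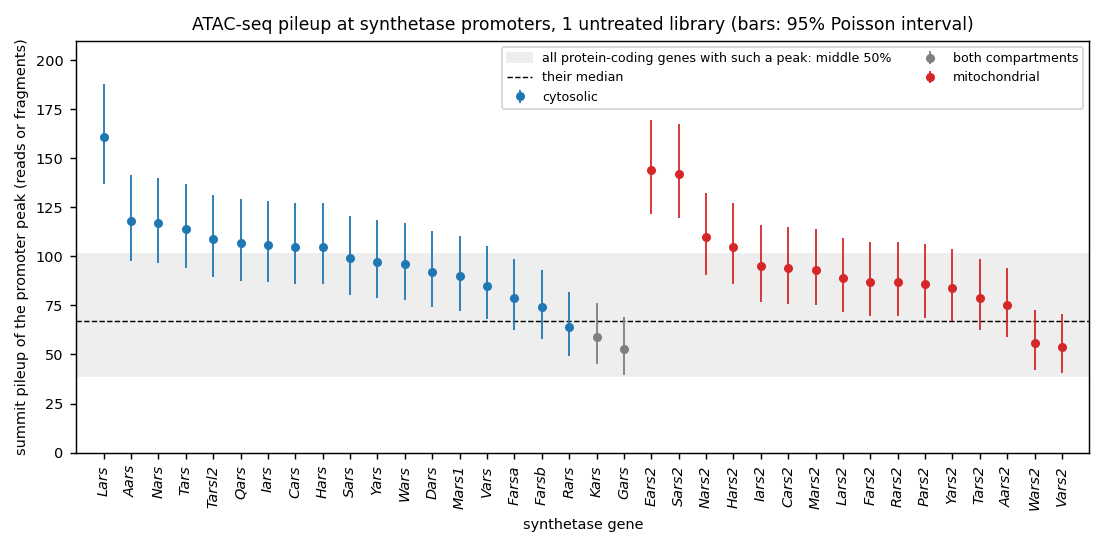
Summit pileup of the promoter peak (vertical axis, reads or fragments) at 36 of the synthetase genes (horizontal axis, grouped by compartment), with exact Poisson 95% intervals as bars. The shaded band is the middle 50% of all genes with a promoter peak, from 39 to 101, and the dashed line their median of 67; 31 of the genes plotted lie above the line, and Gars, Kars, Rars, Wars2 and Vars2 below it.

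Among cytosolic enzymes the promoter pileup had a median of 102 and ran from 64 to 161, and 17 of 18 exceeded the median of all genes. Lars, the leucyl enzyme, was highest at 161 (137 to 188), with a peak at chr18:42261807-42262538 of the mm10 build and a fold of 18.8. Aars followed at 118 and Nars, the asparaginyl enzyme, at 117 (96.8 to 140), and both of their intervals reach into that of Lars. Below them Tars, which charges threonine, had 114 (94.0 to 137), and its close relative Tarsl2 had 109 (89.5 to 131). Between 90 and 107 lay Qars, Iars, Cars, Hars, Sars, Yars, Wars, Dars and Mars1, whose neighbours in this order do not differ beyond counting error. Vars had 85 (67.9 to 105), the paired subunits of phenylalanyl-tRNA synthetase had 79 (Farsa, 62.5 to 98.5) and 74 (Farsb, 58.1 to 92.9), and Rars, the arginyl enzyme, was lowest at 64 (49.3 to 81.7).

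Among mitochondrial enzymes the promoter pileup had a median of 89 and ran from 54 to 144, and 15 of 17 exceeded the median of all genes. Ears2, the glutamyl enzyme that makes the substrate of the amidation route, was highest at 144 (121 to 170). Sars2, the seryl enzyme, had 142 (120 to 167). Nars2 followed at 110 (90.4 to 133) and Hars2 at 105 (85.9 to 127). Iars2, Cars2, Mars2, Lars2, Fars2, Rars2, Pars2 and Yars2 fell between 84 and 95, and Tars2 and Aars2 between 75 and 79. The lowest were Wars2, for tryptophan, at 56 (42.3 to 72.7) and Vars2, for valine, at 54 (40.6 to 70.5), whose upper limits lie below the lower limits of Ears2 and Sars2.

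The enzymes of both compartments stood low among the members. Gars, the glycyl enzyme, had 53 (39.7 to 69.3) with a peak of 1279 bp, and Kars, the lysyl enzyme, had 59 (44.9 to 76.1) with a peak of 1082 bp. Both values lie under the median of all genes and above its lower quartile, and the interval of Gars overlaps those of Wars2 and Vars2. Both peaks are wider than the median of 865 bp, and their folds of 10.8 and 11.2 do not exceed the median of all genes.

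Cytosolic and mitochondrial enzymes differed little as classes. By the highest-fold gene-end peak, the medians were 102 and 93, a difference of 9 in pileup with the cytosolic class higher. In fold enrichment the order was the other way, with medians of 14.2 and 14.8 and a difference of -0.63 (cytosolic minus mitochondrial). By promoter peaks the pileup medians were 102 and 89 and the fold medians 14.2 and 14.8. By promoter peaks the pileups of the classes overlap from 64 to 144, while by gene-end peaks the mitochondrial range, 24 to 938, is the wider.

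Pileup and fold part where the local background differs. Lars2, Cars2 and Vars had similar promoter pileups of 89, 94 and 85, and folds of 19.1, 6.70 and 7.57. Their local backgrounds were 3.72 at Lars2, 13.2 at Cars2 and 10.4 at Vars. Cars2 had the lowest promoter fold of the 37 members and Lars2 the highest. The highest cytosolic folds were those of Lars (18.8), Wars (18.4) and Tars (17.8), and the lowest were those of Vars, Yars (9.81) and Mars1 (11.8). In the mitochondrial class Nars2 (17.0) and Fars2 (15.9) came after Lars2, and Vars2 (10.5) and Yars2 (10.0) were above Cars2 alone.

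Enzymes that charge the same amino acid in the cytosol and in the mitochondrion were compared pair by pair. The 17 pairs cover 15 amino acids, since phenylalanine has paired cytosolic subunits and threonine has Tars and Tarsl2. The cytosolic gene had the higher promoter pileup in 10 pairs, the mitochondrial gene in 6, and 1 pair was equal. Only in 3 pairs were the Poisson intervals apart: Lars at 161 against Lars2 at 89, Aars at 118 against Aars2 at 75, and Wars at 96 (77.8 to 117) against Wars2 at 56. In these 3 the cytosolic gene was higher. Lars and Wars have no listed start, so their values are those of gene-end peaks. The Wars end with this peak lies within 1 kb of an end of Wdr25, so the peak cannot be assigned to Wars alone. The widest excess of a mitochondrial gene was Sars2 at 142 over Sars at 99 (80.5 to 121), where the intervals meet. Rars2 at 87 and Rars at 64 likewise had intervals that overlap. Overlap of intervals does not show that the genes of a pair are equal, and no pair was tested.

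**Figure D2:**
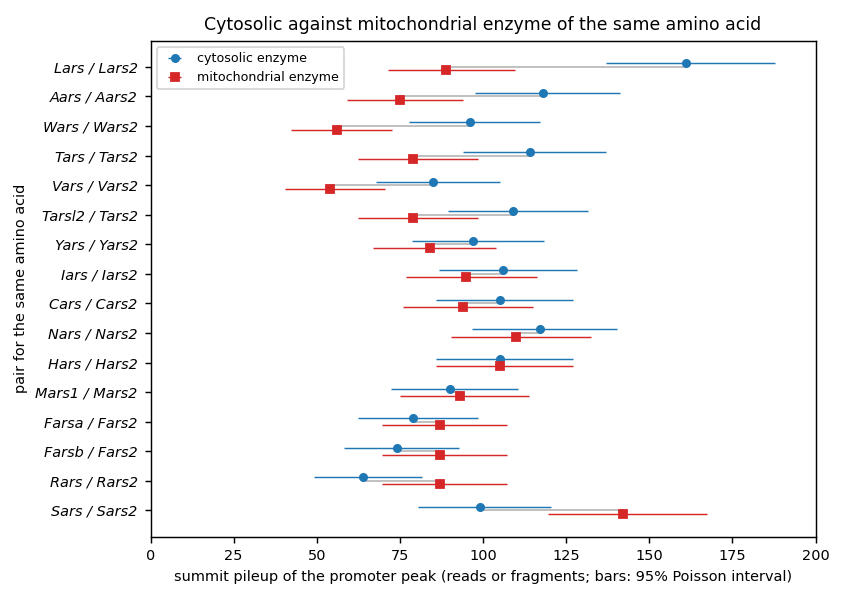
Promoter pileup (horizontal axis, reads or fragments, with exact Poisson 95% intervals) of the cytosolic gene (circles) and the mitochondrial gene (squares) for 16 of the pairs (vertical axis), ordered by their difference. The intervals separate in the pairs Lars/Lars2, Aars/Aars2 and Wars/Wars2 and touch or overlap in the other pairs plotted.

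The equal pair is a shared peak. Hars and Hars2, the cytosolic and mitochondrial histidyl enzymes, are neighbours whose annotated spans meet: Hars ends at 36783205 and Hars2 begins at 36783202 on chromosome 18. The peak at chr18:36782892-36783756, with a pileup of 105 and a fold of 15.9, covers the ends of both genes and was counted for each, so it holds no comparison between them.

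Other mitochondrial synthetases also had a gene end close by. Another protein-coding gene ended within 1 kb of the end with the highest-fold peak at 15 of 35 members (42.9%), against 22.7% of all genes with a gene-end peak. The count was 9 of 15 for mitochondrial enzymes (60%) and 5 of 18 for cytosolic enzymes (27.8%), beside 38 of 76 (50%) for mitochondrial and 17 of 75 (22.7%) for cytosolic ribosomal protein genes. By listed starts, 4 of 14 mitochondrial enzymes had a start on the opposite strand within 1 kb, beside 1 of 11 cytosolic enzymes and 14.2% of genes with a start peak. At the members these starts ran away from theirs, while the share over all genes was not limited to such starts. The 4 mitochondrial enzymes were Rars2 with Orc3 at 15 bp, Ears2 with Ubfd1 at 112 bp, Sars2 with Mrps12 at 147 bp and Fars2 with Lyrm4 at 286 bp. Orc3 encodes a subunit of the origin recognition complex, Mrps12 a mitochondrial ribosomal protein, and Lyrm4 a protein of iron-sulfur cluster assembly. Of the others, Yars started 324 bp from S100pbp, and Kars 5 bp from Terf2ip, which encodes a telomere protein. A peak between such starts cannot be assigned to either gene; this holds for Ears2 and Sars2, which had the highest promoter pileups of the mitochondrial class.

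Summits sat close to the listed starts. Of the 27 members with a listed start, 23 (85.2%) had the summit of the start peak within 100 bp, against 54.6% of 11635 genes with a start peak. Ribosomal protein genes with a start peak lay between, with 40 of 56 (71.4%) for the cytosolic and 48 of 69 (69.6%) for the mitochondrial ribosome. The median distance without regard to side was 52 bp over the members. The exceptions were Yars at 379 bp upstream, beyond the start of S100pbp, Ears2 at 113 bp upstream, and Aars2 and Yars2 at 211 and 226 bp downstream.

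**Figure D3:**
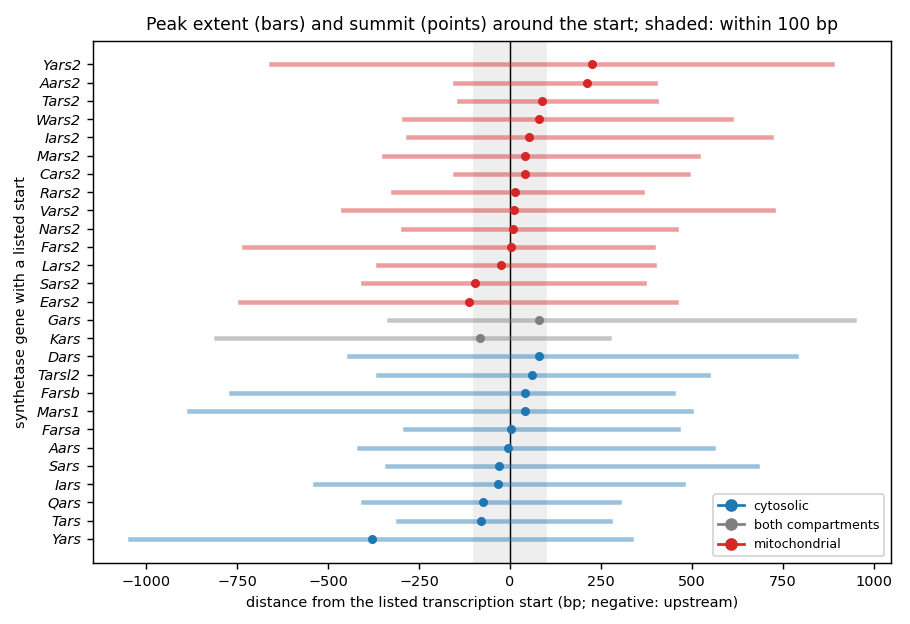
Extent of the start peak (bars) and its summit (points) relative to the listed transcription start (horizontal axis, bp, negative upstream) for the 27 members with a listed start, by compartment. The shaded band marks 100 bp either side, and 23 summits lie in it; Yars, Ears2, Aars2 and Yars2 lie outside.

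Genes of the multisynthetase complex spread over most of the members' range. Its enzymes among the members had promoter pileups of 161 at Lars, 107 (87.7 to 129) at Qars, 106 (86.8 to 128) at Iars, 92 at Dars, 90 (72.4 to 111) at Mars1, 64 at Rars and 59 at Kars, and Eprs had 126. Lars thus lies apart from Rars and Kars by its interval, though the proteins are bound in a single complex. Of the scaffold genes, Aimp2 had 142 (120 to 167), Eef1e1 had 108 (88.6 to 130) and Aimp1 had 69 (53.7 to 87.3). The genes for mitochondrial glutaminyl-tRNA, which stand in for a mitochondrial glutaminyl synthetase, were lower or similar, at 104 (85.0 to 126) for Gatb, 54 (40.6 to 70.5) for Qrsl1 and 25 (16.2 to 36.9) for Gatc. The interval of Gatc lies below that of each of the 37 members, and its fold was 8.16. Mtfmt, which formylates the mitochondrial initiator tRNA, had 66 (51.0 to 84.0).

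Genes of the ribosome served as comparators in the same library. The 77 cytosolic ribosomal protein genes had gene-end peaks at 75, with a median pileup of 83 and a median fold of 8.19. The 78 mitochondrial ribosomal protein genes had them at 76, with medians of 74.5 and 13.4. The corresponding medians of the 35 synthetases with a gene-end peak were 96 and 14.4, so in fold the synthetases lay nearer to the mitochondrial ribosome and in pileup nearer to the cytosolic ribosome. These lists were set by gene symbol, with earlier results of these data known, and no difference between them was tested.

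Lars2 carried a further peak of another size. At chr9:123461800-123462189, near its last annotated end with its nearer edge 486 bp from that end, the pileup was 938 (879 to 1000), the fold 35.8 and the width 390 bp. Among 77533 peaks on chromosomes it ranked 11 by pileup and 7 by fold, and no other gene's highest-fold gene-end peak was taller. The start peak of Lars2 had a pileup of 89, in the middle of its class. In the gene-end values above, the highest-fold rule took the peak of 938 in its place. How reads from repeated sequence were handled is not stated in the sources used here, and whether this pileup measures accessibility at this place was not tested. The same rule picked a far end at Aars, where the last end lies close to Exosc6 and had 107, and at Cars2, where the last end lies close to Naxd and had a pileup of 24 (15.4 to 35.7) and a fold of 6.86.

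Some genes were more accessible inside than at their start. A peak lay inside the gene, away from both ends, at 22 of 37 members (59.5%), against 46.3% of all genes. For Aars, Aars2 and Tars2 this includes the start peak. The members are longer, with a median length of 27.8 kb against 17.2 kb over all genes, and length was not adjusted for. Sars had 150 (127 to 176) at chr3:108433367-108434069 against 99 at its start, and Dars had 146 (123 to 172) at chr1:128392156-128392827 against 92 (74.2 to 113). In both genes the intervals of the inside and the start peak are apart. In fold the inside peaks also stood above the start peaks, at 18.0 against 15.2 for Sars and 16.6 against 13.1 for Dars. Outside the gene, Qars had 166 (142 to 193) beyond its last end at chr9:108516587-108518188, against 107 at its start. In fold the order at Qars was the other way, with 12.8 beyond the end and 15.8 at the start. Whether these peaks act on the synthetase gene or on another was not tested.

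**Figure D4:**
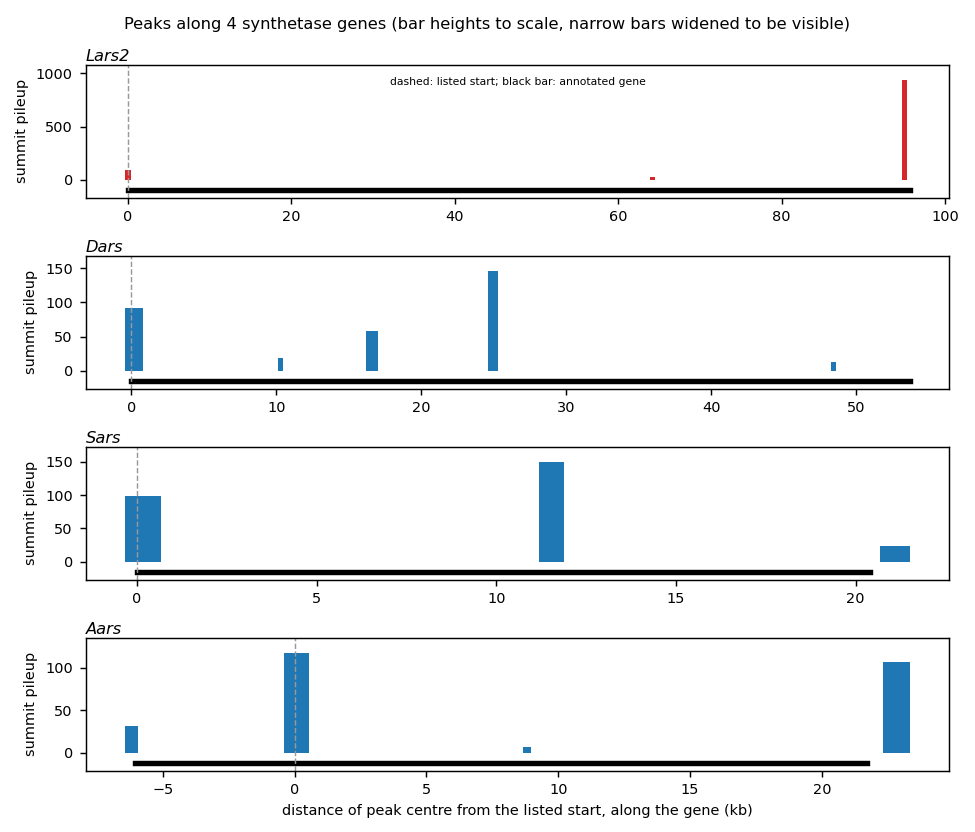
Summit pileup (vertical axis, reads or fragments) of each peak along Lars2, Dars, Sars and Aars against the distance of its centre from the listed start (horizontal axis, kb along the gene); the black bar is the annotated gene and the dashed line the listed start. Lars2 has a peak of 938 near its last end, and Dars and Sars have inside peaks of 146 and 150 that exceed their start peaks. The listed start of Aars lies 6.06 kb inside its annotated span, and a peak of 31 stands at its annotated first end.

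Distal peaks, which lie over 1 kb from every gene end, numbered a median of 6 within 50 kb of a synthetase gene, beside 4 for all genes. Mars1 had the highest number, 14, and Yars2 had 0. Medians were 6.5 for the cytosolic and 5 for the mitochondrial class. The count takes in peaks inside genes and around both ends, and gene length was not adjusted for. Mars1 lies beside Ddit3, the gene of the stress factor CHOP, whose annotated span runs into that of Mars1: Ddit3 ends at 127296291 and Mars1 begins at 127296221 on chromosome 10. Ddit3 also had 14 distal peaks within 50 kb.

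Matches to several known motifs were spread unevenly over the classes. RefSeq windows of the GRCm38.p6 build run from 250 bases before to 50 after each listed start, and 27 members have a window: 11 cytosolic, 14 mitochondrial, and Gars and Kars. The CARE motif TGATGNAA (reverse complement TTNCATCA) was found in 4 of 11 cytosolic windows (Aars, Iars, Tars and Yars), in that of Gars and in 0 of 14 mitochondrial windows. It occurs at 4.13% of the 17492 genes with a window, at 2.52% of those with a start peak, and at 0 genes of either ribosomal list. Here and below, a gene with several windows counts once, so shares and counts of windows are those of genes. The windows of Aars, Iars, Tars, Yars and Gars lie wholly inside their start peaks, so any match in them does too. The 6 matches lay from 18 to 386 bp from the summit. Of these, 5 are shown here because they were found in windows of cytosolic members and of Gars, and in 0 mitochondrial windows. Positions are those of the first base of the match, with the start base counted as 1. Each is 30 bases on the strand of the gene, 5′ to 3′, with the match in capitals:
Aars, chr8:111033840-111033869, plus strand, 10 bases into the transcript: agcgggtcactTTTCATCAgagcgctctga
Iars, chr13:49682126-49682155, plus strand, 8 bases into the transcript: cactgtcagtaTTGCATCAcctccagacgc
Tars, chr15:11399655-11399684, minus strand, 15 bases before the start: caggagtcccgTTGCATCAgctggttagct
Yars, chr4:129189895-129189924, plus strand, 4 bases into the transcript: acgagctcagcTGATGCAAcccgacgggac
Gars, chr6:55037960-55037989, plus strand, 30 bases before the start: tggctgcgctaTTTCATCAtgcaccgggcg

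In 4 of the 5 sites shown the letters read TTNCATCA along the gene, and Yars has the reverse. The words TTGCATCA, TTTCATCA and TGATGCAA all fall under the searched motif; TTGCATCA stands at Iars and Tars. Of 16 amino acid response genes with a window, a list drawn up from known ATF4 targets and so no independent yardstick, 5 held the motif: Asns, Chac1, Pycr1, Slc7a11 and Trib3. The start of Slc7a11, a cystine transporter, had a pileup of 8, and the 5 synthetases with the motif had from 53 at Gars to 118 at Aars. A CARE match is a description of the letters, and no binding of ATF4 was measured. The E-box CACGTG, a palindrome, was found in 4 of 11 cytosolic windows (Aars, Farsb, Iars and Tars) and in 1 of 14 mitochondrial windows (Ears2), against 8.91% of all windows and 11.6% of those with a start peak. Aars, Iars and Tars thus held both motifs.

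Motifs of nuclear factors known from promoters of mitochondrial genes were searched too, with counts that differed by motif. The NRF1 motif GCGCATGC (reverse complement GCATGCGC) was in 3 of 14 mitochondrial windows (Rars2, Vars2 and Wars2) and in 0 of 11 cytosolic windows, against 3.94% of all windows and 5.68% of those with a start peak. The YY1 motif AAGATGGCG was in 3 of 14 mitochondrial windows (Aars2, Wars2 and Yars2) and in 1 of 11 cytosolic windows (Farsa), against 2.14% and 3.12%. The ETS motif CCGGAAGT (reverse complement ACTTCCGG) was in 2 of 11 cytosolic windows (Farsa and Mars1) and in 1 of 14 mitochondrial windows (Rars2), against 5.69% and 8.20%. Among mitochondrial ribosomal protein genes NRF1 and YY1 were each in 8 of 69 windows, and ETS in 12. Apart from that of Aars2, the member windows with NRF1 or YY1 matches lie wholly inside the start peak, so any match in them does too. All 8 NRF1 and YY1 sites of members lay inside the start peak. The NRF1 matches stood 28 to 140 bp and the YY1 matches 70 to 206 bp from the summit. They are printed because mitochondrial members hold 7 of the 8, in the same form as the CARE sites:
NRF1 in Rars2, chr4:34614895-34614924, plus strand, 51 bases before the start: cggccccgtgtGCATGCGCactccacactt
NRF1 in Vars2, chr17:35667620-35667649, minus strand, 46 bases before the start: gagtcttttacGCATGCGCctgcgtgtccc
NRF1 in Vars2, chr17:35667594-35667623, minus strand, 20 bases before the start: tccccgcccacGCATGCGCgcgcacctcgc
NRF1 in Wars2, chr3:99141015-99141044, plus strand, 64 bases before the start: ccagaggacagGCGCATGCgtagtaagcac
YY1 in Aars2, chr17:45506841-45506870, plus strand, 20 bases into the transcript: gcccggagctAAGATGGCGgtggcgttggc
YY1 in Wars2, chr3:99141086-99141115, plus strand, 7 bases into the transcript: cgcccttctcAAGATGGCGctgttctctgt
YY1 in Yars2, chr16:16302971-16303000, plus strand, 17 bases into the transcript: cgtgtcccgcAAGATGGCGgcgcccatgct
YY1 in Farsa, chr8:84856882-84856911, plus strand, 94 bases before the start: tgccacacttAAGATGGCGacgaccagctt

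In Aars2, Wars2 and Yars2 the YY1 letters begin within the first 20 bases of the transcript and read along the gene. Wars2 and Vars2, which hold NRF1 matches, had the lowest promoter pileups of the mitochondrial class, and Rars2 had 87. No factor's binding was measured.

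The common promoter elements were found in both classes. NF-Y (CCAAT, reverse complement ATTGG) was found in 13 of 27 member windows (48.1%), against 42.3% of all windows and 43.1% of those with a start peak. The GC box (GGGCGG, reverse complement CCGCCC) was in 6 of 11 cytosolic and 11 of 14 mitochondrial windows, against 49.2% of all windows and 69.3% of those with a start peak. The TATA word TATAAA was in 3 of 27 (Aars2, Farsa and Tars2, 11.1%), against 14.8% of all windows and 8.58% of those with a start peak. The CRE TGACGTCA and the ZNF143 motif ACTACAATT were in 0 of 27, against 2.54% and 0.577% of all windows and 3.50% and 0.791% of those with a start peak. Over all 86 distinct matches in member windows, 0 pairs of different motifs overlapped. CpG-rich windows (GC above 50% and an observed to expected CpG ratio above 0.6) numbered 12 of 14 in the mitochondrial class and 6 of 11 in the cytosolic class, against 45.5% of all windows and 67.6% of those with a start peak. CpG content was taken from the first window of each gene. The counts per class are small, and no difference between the classes was tested.

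**Figure D5:**
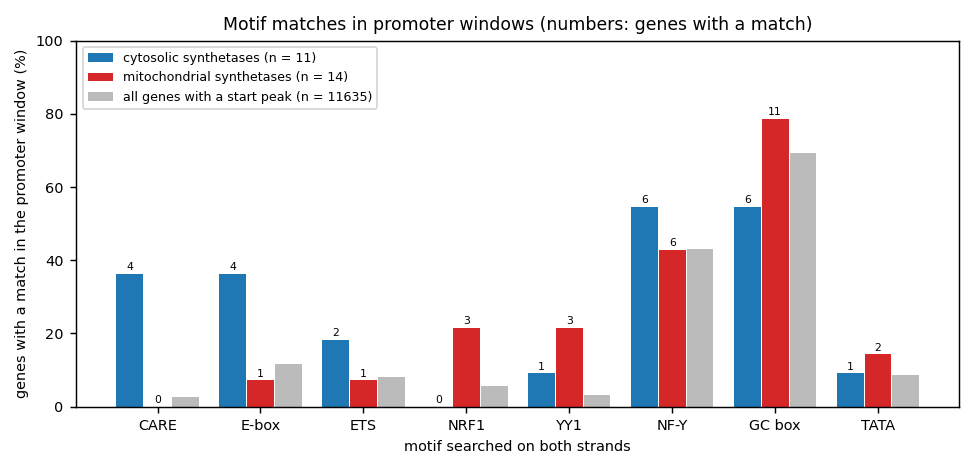
Share of genes with a match in a promoter window to each of 8 motifs (vertical axis, percent, horizontal axis, motif). Bars are for 11 cytosolic members, 14 mitochondrial members and all 11635 genes with a start peak. Numbers above the bars are genes with a match. CARE and E-box matches stand at 4 cytosolic windows each, and NRF1 and YY1 matches at 3 mitochondrial windows each.

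The 250 bases before the start show how these elements lie in 4 accessible promoters. They were picked from the members whose listed start is the end of the annotated gene, with no other gene end within 1 kb. Tars (pileup 114, fold 17.8) holds paired NF-Y words, a GC box and the CARE; Gars (53 and 10.8) holds the CARE and a GC box; Mars2 (93 and 13.5), the mitochondrial methionyl enzyme, holds 2 GC boxes and an NF-Y word; and Lars2 (89 and 19.1) holds 2 GC boxes. Capitals mark every match to a searched motif, and each sequence reads 5′ to 3′ on the strand of the gene:
Tars, chr15:11399659-11399908, minus strand: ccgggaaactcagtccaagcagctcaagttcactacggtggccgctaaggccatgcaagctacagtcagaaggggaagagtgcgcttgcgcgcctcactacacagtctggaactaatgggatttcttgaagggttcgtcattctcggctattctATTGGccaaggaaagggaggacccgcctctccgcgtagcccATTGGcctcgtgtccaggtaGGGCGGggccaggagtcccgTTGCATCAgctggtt
Gars, chr6:55037751-55038000, plus strand: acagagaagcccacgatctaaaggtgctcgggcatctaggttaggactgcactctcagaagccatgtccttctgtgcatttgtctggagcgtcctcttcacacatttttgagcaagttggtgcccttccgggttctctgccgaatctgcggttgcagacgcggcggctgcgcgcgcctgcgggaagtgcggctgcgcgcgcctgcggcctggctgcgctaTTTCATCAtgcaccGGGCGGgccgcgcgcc
Mars2, chr1:55236927-55237176, plus strand: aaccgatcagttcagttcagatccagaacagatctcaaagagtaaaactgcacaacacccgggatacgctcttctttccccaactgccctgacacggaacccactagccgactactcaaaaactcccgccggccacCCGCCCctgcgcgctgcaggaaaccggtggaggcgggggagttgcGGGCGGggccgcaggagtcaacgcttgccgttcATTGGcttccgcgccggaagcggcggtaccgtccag
Lars2, chr9:123366677-123366926, plus strand: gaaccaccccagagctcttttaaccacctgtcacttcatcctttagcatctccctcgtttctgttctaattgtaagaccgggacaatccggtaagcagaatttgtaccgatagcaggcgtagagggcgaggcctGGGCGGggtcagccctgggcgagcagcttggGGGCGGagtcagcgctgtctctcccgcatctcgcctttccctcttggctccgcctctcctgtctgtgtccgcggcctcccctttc

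Of these 4, Tars, with the widest set of elements, and Lars2, with GC boxes alone, had folds of 17.8 and 19.1, while Gars, which shares the CARE with Tars, had the lowest promoter pileup of the 37. By pileup the 4 ran from Tars at 114 through Mars2 at 93 and Lars2 at 89 to Gars at 53. Whether the elements bear on pileup or fold was not tested.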

How the data were processed

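ATAC-seq peaks of 1 library, from untreated NSD1-dTAG stem cells, were analysed. The members and gene lists were chosen with earlier results of these data known. The submitters' processing notes name Bowtie2 2.3.4.1, SAMtools 1.9, MACS2 2.2.6 and, as builds, mm10 and GRCm38.p6. Not given in the sources used here are the read total, any Tn5 shift, and filters on duplicates, mapping quality or mitochondrial reads. Unfiltered duplicates or repeats would raise single peaks.

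The deposited peak list gives, per peak, a score (the authors' -log10 q times 10, rounded down), a fold (per the authors, a ratio of the summit's pileup over background nearby), -log10 values of p and q, and the summit's position as an offset in base pairs. The peaks passed a q-value of 0.05, per the labels. Positions were converted to count from 1. Pileups were recovered from fold = (pileup + 1)/(background + 1) and the Poisson p, solved together; 77626 of 77629 (99.996%) came out whole within 0.01. A unit of pileup may be a read or a fragment, which no source used here states, and may include PCR copies.

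Gene ends were taken from RefSeq (GRCm38.p6), in a table that gives no strand. Starts and strands were taken from RefSeq promoter windows of that build. The windows cover 27 of 37 members and lack, among others, Cars, Hars, Hars2, Lars, Nars, Pars2, Rars, Vars and Wars. The values of 1 member and the sequence of 1 site are not reported here, and counts and medians keep that member. A peak overlapping 1 kb either side of a gene end by 1 bp was a gene-end peak, and the highest fold stood for the gene. Compartments followed the symbols. Members named with full values were those with the 3 highest and 3 lowest folds of each class, those without a gene-end peak, the pairs, the complex subunits, Gars and Kars. Intervals are exact Poisson for pileups and Wilson for shares. Motifs were searched on both strands. Alternatives covered windows, thresholds, peak choice, starts, class membership and neighbours. Computations used Python 3.11.15 with numpy 2.4.6, pandas 2.3.3 and scipy 1.17.1, and were tested on simulated peaks.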

Additional observations from a re-analysis of the deposited data

How the results depend on the processing

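Of 99 recomputed values, 90 stayed within a set margin of the value reported, and 0 of the differences reversed direction. The margin was the Wilson interval for shares and the Poisson interval of a single count for medians. Differences between classes used counting error and distal counts a fixed ratio. For the class differences the margin was wider than the difference itself, so staying within it says little about their stability. The share of members with a peak became 100%, for all members and for the mitochondrial class, with a window of 2500 bp, with listed starts only, and with the listed start or otherwise a gene end (the last chosen after seeing the data). The settings with listed starts reach the internal starts of Aars2 and Tars2. Across the settings run, the share ranged from 91.9 to 100% for all members, from 94.7 to 100% for the cytosolic class, where adding Eprs gave the lowest value, and from 82.4 to 100% for the mitochondrial class. The cytosolic median pileup ranged from 98 to 105 and the mitochondrial from 87 to 94, their difference from 4 to 15.5, and the difference in fold from -0.99 to -0.09. The median number of distal peaks was 2 within 20 kb, 10 within 100 kb, and 3 with a pileup of 20 or more. No paired analysis was possible because each group has 1 sample. Overlap of the Poisson intervals of 2 genes does not show that they are equal, and with 1 library no difference between genes was tested.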

Other observations

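Gene-end peaks were also counted over other genes of tRNA use and translation, from lists drawn up with earlier results known; 66.5% of all protein-coding genes had such a peak, and the counts of these small lists were not tested against that share. Gene-end peaks stood at all 4 selenocysteine genes, where pileups had a median of 66.5 and ran from 52 at Eefsec, the selenocysteine elongation factor, to 99 at Secisbp2, which binds the selenocysteine insertion element. All 4 proofreading genes had such a peak as well, with 92 at Dtd1, 64 at Dtd2, 29 at Aarsd1 and 99 at Prorsd1. Trnt1, which adds the CCA end to tRNAs, had 62 (47.5 to 79.5, exact Poisson 95% interval).

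Cytosolic elongation factors had a median gene-end pileup of 123.5 over 6 genes, with 177 at Eef2 and 117 at Eef1a1, and mitochondrial translation factors had 74 over 9 genes, from 16 at Mtif3 to 189 at Mtrf1l. At Eef2 the peak of 177 was not the start peak, which had 54, and at Eef1b2 the peak of 92 was not the start peak, which had 56. By promoter peaks the medians were 102.5 for the cytosolic elongation factors and 74 for the mitochondrial translation factors. The amino acid response list had gene-end peaks at 16 of 17 genes with a median pileup of 83; Slc7a11 had none, and Atf4 itself had 129 (108 to 153).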
